A study of Mus musculus with 2 samples.

Results

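The cells described here are the epithelial cells of mouse distal colon adenomas that the authors' deposited annotation calls Proliferating. They were taken by that name alone and numbered 310 of 3041 epithelial cells, among 14097 cells in all. Their class came from the deposited table of chromosomal instability (CIN) status: 111 were CIN_high and 199 were CIN_low. All cells came from adenomas of Apcmin;LSL-mTERT mice at 25 weeks of age, dissociated with collagenase A and trypsin and profiled by droplet single-cell RNA sequencing (10x Genomics). Apcmin mice carry a truncating allele of Apc, the negative regulator of Wnt signalling, and develop intestinal adenomas; LSL-mTERT is a mouse Tert allele behind a removable stop cassette. The labels name a G0+T and a G4+T sample, and the series concerns telomeric chromosomal instability in intestinal cancer. Cell names carry 2 numeric suffixes, and one suffix held all 6189 CIN_high cells while the other held all 7908 CIN_low cells. The class is therefore the library, and the names conflict with the sample titles on which library is G0+T and which is G4+T, so the cells are called by class only. The labels state neither how many mice or adenomas were pooled nor that a cell sort was applied, and give no promoter or Cre driver for the mTERT allele.

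With 1 library in each class there was no replicate, and no difference between classes or between subtypes was tested. Intervals are exact 95% intervals, the share that a count of 0 allows is 3 counts over the total, and both cover counting error only. A level is the mean over cells of a gene's UMIs (unique molecular identifiers, counted RNA molecules) per 10000 UMIs of the cell, and log2 ratios compare such levels. A gene was counted as higher or lower past 1.5-fold. Such counts stand beside the same share over all measured genes, which is the background to read them against.

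A dividing cell copies its DNA in S phase, after origins were licensed by the MCM helicase, and separates the copies in mitosis on a spindle of microtubules. The genes for these steps are switched on in waves, with the replication genes driven by E2F factors near the start of S phase and the mitotic genes driven later, in G2. In the normal colon dividing cells sit in the lower crypt next to Lgr5-positive stem cells, and division stops as cells mature into colonocytes or goblet cells. Shortened telomeres and misaligned chromosomes can activate the p53 pathway, whose targets include the cell cycle inhibitor Cdkn1a.

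Proliferating cells made up 111 of 1316 CIN_high epithelial cells (8.43%, interval 6.99 to 10.1%) and 199 of 1725 CIN_low epithelial cells (11.5%, interval 10.1 to 13.1%). They were the deepest profiled epithelial cells: their median was 24594 UMIs in CIN_high and 24592 in CIN_low, against 13578 and 14664 in the other epithelial cells. At a common depth of 5000 UMIs the numbers of genes detected were closer, with medians of 2118.5 and 2189 in Proliferating cells against 2060 and 2140 in the others. Ribosomal protein genes took a median of 18.7% and 17.0% of the UMIs of Proliferating cells, against 13.4% and 12.5% in the others, and mitochondrial genes took 10.2% and 8.89%, against 12.4% and 10.7%. A doublet caller marked 4 CIN_high and 6 CIN_low Proliferating cells, and 1 Proliferating cell had a barcode present in both libraries.

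The 4 defining markers bore out the name. Mki67 (chr7:135689784-135716361 in mm10), which coats mitotic chromosomes, had a level of 7.28 in CIN_high and 8.72 in CIN_low Proliferating cells, against 0.310 and 0.348 in the other epithelial cells. Top2a (chr11:98992943-99024189), the topoisomerase that untangles replicated DNA, had 6.41 and 7.82 against 0.169 and 0.177. Aurkb (chr11:69045647-69051664), the kinase that corrects faulty spindle attachments, had 0.471 and 0.626 against 0.0105 and 0.0111. Kif11 (chr19:37376403-37421859), the motor that pushes the spindle poles apart, had 0.940 and 1.33 against 0.0273 and 0.0255. In both libraries each of the 4 markers was far higher in Proliferating cells than in the rest of the epithelium, and each was somewhat lower in CIN_high than in CIN_low Proliferating cells.

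At least 1 UMI of Mki67 was present in 96.4% of Proliferating cells in CIN_high and 95.5% in CIN_low, and still in 84.3% and 85.2% when every cell was thinned to 5000 UMIs. At that depth the share was 7.28% in the other CIN_high epithelial cells and 8.97% in the other CIN_low ones. Outside the epithelium, Mki67 was found in 0.958% of 731 thinned CIN_high fibroblasts, which bounds the share that stray RNA gave there. The other epithelial subtypes lay in between: by level the next highest was Igfbp+_cell, a group of 25 CIN_high cells of which 13 were called doublets, with Mki67 at a level of 1.88, and the lowest was p57+_cancer_cell, at 0.0400 in CIN_high and 0.0509 in CIN_low.

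**Figure D1:**
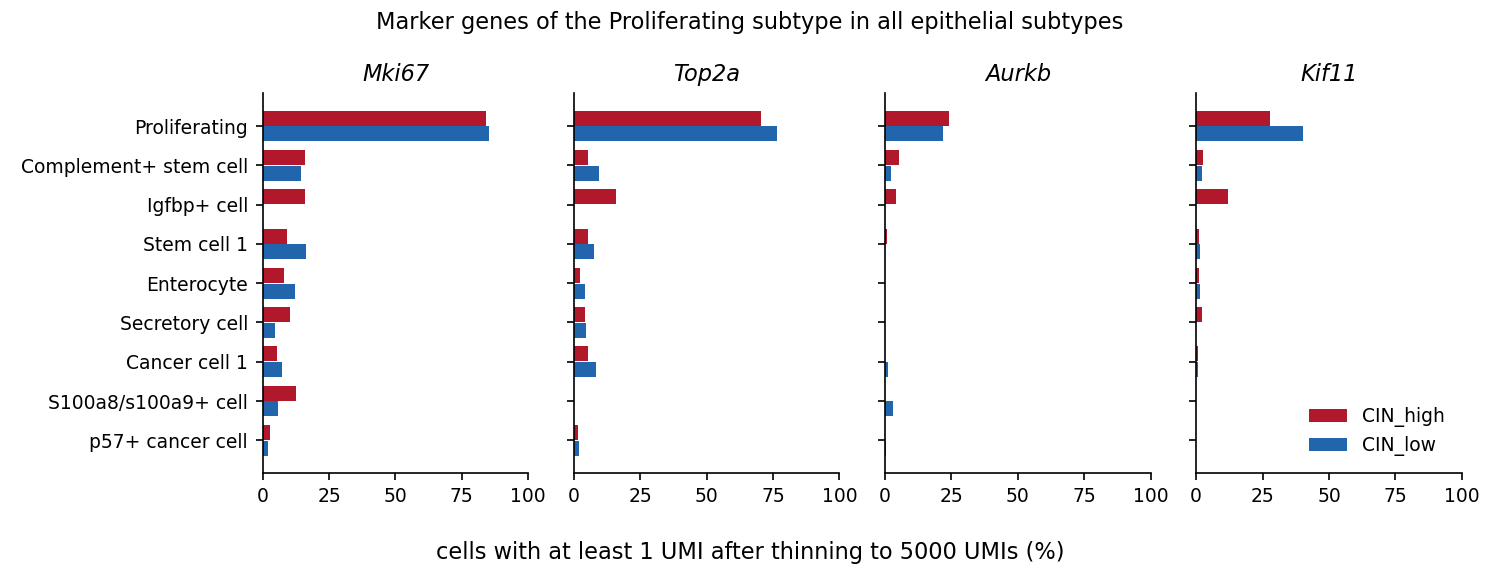
Percent of cells with at least 1 UMI of Mki67, Top2a, Aurkb or Kif11 after thinning every cell to 5000 UMIs, as bars for each epithelial subtype of the CIN_high (red) and CIN_low (blue) libraries; Igfbp+ cells were in CIN_high only. Proliferating cells had the longest bars for all 4 genes, with Mki67 at 84.3% in CIN_high and 85.2% in CIN_low.

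As a group the cells were epithelial, with some signal of other cell types. The summed level of 5 epithelial markers (Epcam, Krt8, Krt18, Krt20 and Cdh1) was 53.5 in CIN_high and 59.1 in CIN_low Proliferating cells, against 67.0 and 65.9 in the other epithelial cells. The median Proliferating cell held 118 UMIs of these markers in CIN_high and 153 in CIN_low, while 1 CIN_high and 2 CIN_low cells held under 10. Col1a1, Col1a2 and Pdgfra were at 0 in CIN_low Proliferating cells and Lum in both classes, and the fibroblast list summed to 0.0640 and 0.00589. The B cell list summed to 0.0711 and 0.0293, and Cd3d, Cd3e, Cd3g and Nkg7 were at 0 in CIN_high. The pericyte list summed to 0.0253 and 0.0107, and the endothelial list to 0.226 and 0.276. Macrophage markers summed to 2.73 in CIN_high and 1.74 in CIN_low, and 9 and 13 cells held at least 5 UMIs of them. The 5 cells with the most held 84.1% of all macrophage marker UMIs in CIN_high and 74.8% in CIN_low. Neutrophil markers (S100a8, S100a9, G0s2, Retnlg, Csf3r and Cxcr2) summed to 0.720 in CIN_high and 5.15 in CIN_low, and 7 of 111 against 146 of 199 cells held at least 5 UMIs. The same markers summed to 6.84 and 19.2 in the other epithelial cells of the 2 libraries. In all, 12 CIN_high (10.8%) and 23 CIN_low (11.6%) Proliferating cells held at least 5 UMIs of macrophage, T and NK, B, fibroblast, endothelial or pericyte markers, or at least 50 UMIs of Jchain.

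Set against the other epithelial cells, Proliferating cells had higher levels of most listed genes of DNA replication and mitosis. Of 13037 genes measured in both classes, 1401 were at least 1.5-fold higher in both (10.7%), 1948 were at least 1.5-fold lower in both (14.9%) and 153 went opposite ways (1.17%). Within CIN_high 16.4% of 13370 genes were higher and 23.5% lower, and within CIN_low 15.7% of 13786 were higher and 26% lower. Since the annotation was made from these same cells, these values describe the subtype and test nothing. Medians over all genes were -0.07 in CIN_high and -0.12 in CIN_low on the log2 scale.

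The replication genes came first in the order of the cycle. All 16 origin licensing genes were higher in both classes, with median log2 ratios of 2.74 in CIN_high and 2.52 in CIN_low. Among them Cdc45, part of the active helicase, had levels of 0.273 and 0.245, with log2 ratios of 4.60 and 4.09 over the other cells. All 24 DNA synthesis genes were higher as well, with medians of 2.74 and 2.78. Pcna, the sliding clamp of the DNA polymerases, had 2.43 and 2.99 against 0.623 and 0.753. Rrm2, the ribonucleotide reductase subunit that limits the supply of DNA building blocks, had log2 ratios of 4.29 and 4.59.

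The histones that package new DNA showed some of the widest gaps of any genes. Of 17 measured replication-dependent histone genes, 15 were higher in each class, with medians of 2.97 and 2.76. Hist1h1b, a linker histone, had levels of 4.49 and 5.28 in Proliferating cells, against 0.0332 and 0.0746 in the others. Hist1h3c had log2 ratios of 6.94 and 6.33, and Hist1h2ap had levels of 11.6 and 12.8 against 0.271 and 0.198. Histone genes of a cluster are close copies of each other, so reads may have been split among them. All 20 chromatin assembly genes were also higher, with medians of 2.22 and 1.94, among them the histone variant H2afz at 13.4 and 15.2 against 3.56 and 4.26.

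The mitotic groups, apart from anaphase and exit genes, had the highest medians of the gene lists. Medians over the 27 spindle motor and spindle assembly genes were 4.90 in CIN_high and 4.84 in CIN_low, and all 27 were higher in both. The 20 genes for entry into mitosis had medians of 4.17 and 4.50, with 19 higher in CIN_high and 20 in CIN_low. Cdk1, the kinase that drives mitosis, had 1.43 and 1.73 against 0.0258 and 0.0273. Ccnb1, its cyclin partner, had 0.709 and 0.839 against 0.0135 and 0.0211. The 25 kinetochore genes had medians of 3.74 and 3.97, the 12 condensation genes 3.39 and 3.61, and all of these were higher in both classes. The 18 spindle checkpoint and chromosomal passenger genes had medians of 4.06 and 4.27. Among the leading genes were Nusap1, a microtubule bundler, with log2 ratios of 6.14 and 6.98, and Esco2, which sets up cohesion between sister chromatids, with 6.23 and 6.48. The 13 genes of anaphase and mitotic exit were less uniform, with 10 higher in CIN_high and 8 in CIN_low and medians of 0.99 and 0.66. Pttg1 (securin), which holds back sister separation, was no higher than in the rest, at 0.230 and 0.175 against 0.232 and 0.268.

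Genes for growth were higher too, by less than the cycle genes. Of 20 ribosome biogenesis genes 18 were higher in CIN_high and 17 in CIN_low, with medians of 0.96 and 0.82, and the nucleolar protein Ncl had 14.8 and 15.1 against 6.53 and 7.03. Of 23 nucleotide and one-carbon genes 19 and 17 were higher. Of 32 DNA repair genes 27 were higher in each class, with medians of 2.64 and 2.70. By contrast the 22 oxidative phosphorylation genes had medians of 0.41 and 0.39 with 3 higher, and the 17 glycolysis genes had 0.12 in both classes.

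Control of the G1 to S step was mixed. Of 16 such genes 10 were higher in CIN_high and 11 in CIN_low, and 2 were lower in each. Ccne1, the cyclin of S phase entry, had levels of 0.358 and 0.398, with log2 ratios of 3.8 and 4.00. Ccnd2, a G1 cyclin, was lower at 1.92 and 1.69 against 3.90 and 2.67, and so was Cdk6, the partner of D cyclins, with log2 ratios of -1.15 and -0.92. Ccnd1 had 3.16 and 3.26 against 2.60 and 2.05. The cyclin-dependent kinase inhibitors split: Cdkn2c and Cdkn2d were higher, with log2 ratios of 2.06 and 3.93 for Cdkn2c and 1.88 and 2.41 for Cdkn2d, while Cdkn1c (p57) was lower at 0.340 and 0.310 against 0.657 and 1.29.

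Goblet and deep crypt secretory genes were mostly lower than in the other epithelial cells, and colonocyte, fetal-like, interferon and inflammation genes in part. Of all measured genes 23.5% were lower in CIN_high and 26% in CIN_low. All but 1 of the measured goblet genes were lower in each class, 11 of 12 in CIN_high and 9 of 10 in CIN_low, with medians of -2.78 and -3.24. Deep crypt secretory genes were lower in 8 of 9 and 7 of 9, and colonocyte genes in 8 of 12 and 6 of 13, with 4 of the 13 higher in CIN_low. Krt20, a keratin of mature surface cells, had 0.0219 and 0.0186 against 0.822 and 0.675. Of 22 fetal-like genes measured in CIN_high 14 were lower, and of 21 in CIN_low 13 were lower. Of 26 interferon genes 15 and 11 were lower and none was higher, and of the inflammation genes regulated by NF-kB 11 of 22 and 13 of 23 were lower. Nupr1, a stress-induced chromatin protein, had 0.464 and 0.628 against 4.38 and 4.51, and Lypd8, a secreted antibacterial protein of the colon, had 3.22 and 2.16 against 12.8 and 8.51. Yet a UMI of Lypd8 was in 64.9% and 64.3% of Proliferating cells, against 44.6% and 39.1% of the others, which are shallower. The other cells include the Secretory_cell and Enterocyte subtypes. Ratios of these lists to Stem_cell_1 or Cancer_cell_1 alone are not given here.

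The stem cell genes were on balance lower as well. Of 19 stem cell markers 9 were lower in CIN_high and 8 in CIN_low, and 2 and 3 were higher. Of all measured genes 23.5% and 26% were lower, and 16.4% and 15.7% were higher. Lgr5, the receptor that marks crypt base stem cells, had 0.359 and 0.356 against 1.09 and 0.787. Ascl2, the transcription factor of the same cells, went the other way at 0.282 and 0.468 against 0.177 and 0.224. Cgas, the sensor of stray DNA, was higher in Proliferating cells at 0.207 and 0.30 against 0.0282 and 0.0280. Of the 12 DNA sensing genes 5 and 4 were lower, which in CIN_low is near the share of all genes. Of the telomere genes 9 of 18 were higher in CIN_high, and 9 of 19 in CIN_low. A UMI of Tert itself was found in 0 of 111 CIN_high Proliferating cells, which allows up to 2.70% of cells with a UMI, and in 8 of 199 CIN_low ones (4.02%). That limit concerns captured UMIs and not expression of the gene.

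**Figure D2:**
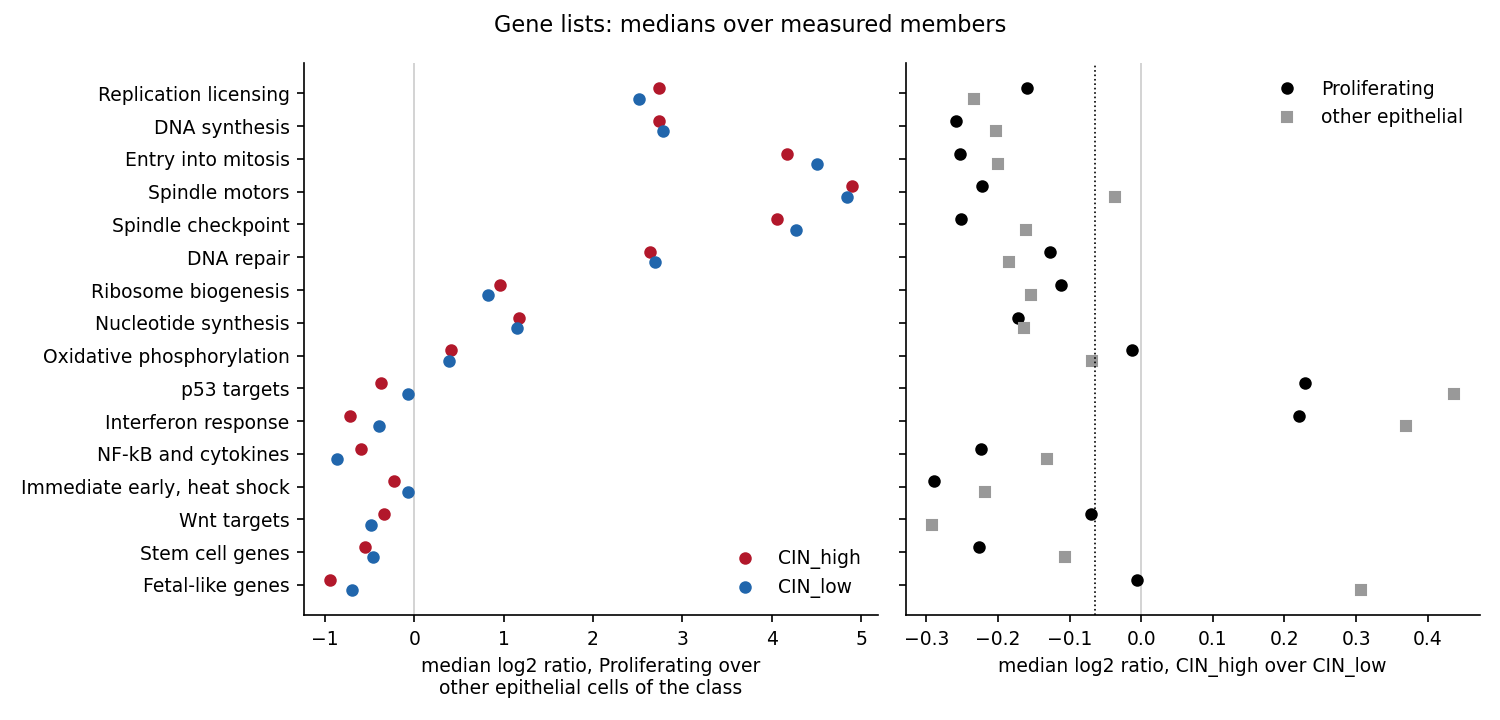
Median log2 ratio of each gene list for Proliferating over other epithelial cells (left) and for CIN_high over CIN_low within Proliferating cells (right), in log2 units, with black points for Proliferating and grey squares for other epithelial cells on the right and a dotted line at the median of all genes in Proliferating cells. Replication and mitosis lists lay far to the right of 0 on the left, and on the right the p53 list lay at 0.23 in Proliferating cells (0.45 at 5000 UMIs per cell) and 0.44 in other epithelial cells.

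Within the subtype, cells were spread over the cycle. Each cell's position was taken as the UMIs of 52 listed G2 and M genes over those UMIs plus the UMIs of 42 listed S genes, at 5000 UMIs per cell. The median was 0.775 over 108 CIN_high cells (quartiles 0.551 and 0.865) and 0.768 over 196 CIN_low cells (quartiles 0.549 and 0.865). Below 0.5 a cell held more UMIs of the S genes than of the G2 and M genes. In that range lay 20 CIN_high cells (18.5%, interval 11.7 to 27.1%) and 40 CIN_low cells (20.4%, interval 15.0 to 26.7%). These are not shares of cells in S phase. At or above 0.8 lay 49 CIN_high (45.4%) and 84 CIN_low cells (42.9%). The ranges are divisions of a continuous score and not cell types: 31 CIN_high and 43 CIN_low cells lay within 0.1 of the dividing line at 0.5.

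Genes that had not been used to place the cells followed the order. The early (below 0.5), middle (0.5 to 0.8) and late (0.8 and above) ranges held 20, 37 and 54 CIN_high cells and 42, 67 and 90 CIN_low cells, here placed at full depth. Mcm3, a subunit of the replicative helicase, had levels of 2.30, 1.25 and 0.229 from early to late in CIN_high and 2.28, 1.5 and 0.405 in CIN_low. Ccne1 had 0.768, 0.633 and 0.0185 in CIN_high and 0.883, 0.547 and 0.0598 in CIN_low. In the other direction Ccnb1 had 0.235, 0.430 and 1.08 in CIN_high and 0.0120, 0.536 and 1.45 in CIN_low, and Plk1, the kinase of mitotic entry, had 0.354, 0.779 and 1.27, and 0.107, 0.925 and 1.74. The linker histone Hist1h1b was highest in the middle in both classes, at 1.82, 9.38 and 2.13 in CIN_high and 2.13, 9.14 and 3.87 in CIN_low. Ccnd1 was highest early, at 5.59, 3.23 and 2.21 in CIN_high and 5.18, 3.11 and 2.48 in CIN_low, and so was Cgas, at 0.432, 0.274 and 0.0783, and 0.565, 0.359 and 0.133.

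Many cycle genes were part of the score, so lists are counted over their other members only. Late cells over early cells gave 12 of 13 such spindle genes higher in CIN_high and 13 of 13 in CIN_low, where 21% and 18.2% of all genes were higher. Licensing genes outside the score were lower in 7 of 8 in each class, where 18.6% and 19% of all genes were. Cycle genes vary together, so these counts follow in part from how the cells were placed. None of 22 oxidative phosphorylation genes passed 1.5-fold either way in either class. Among genes outside the score, the leading early genes were Slfn9, at 3.26, 2.16 and 0.324 in CIN_high and 2.96, 2.05 and 0.322 in CIN_low, and Chaf1a, a histone chaperone of the replication fork, at 1.29, 0.677 and 0.117 and at 1.06, 0.695 and 0.191. The leading late genes were Cdkn3, a phosphatase that acts on Cdk proteins, at 0.0591, 0.152 and 0.729 and at 0.0218, 0.214 and 0.694, and Aspm, a spindle pole protein, at 0.129, 0.528 and 1.21 and at 0.0626, 0.524 and 1.67.

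**Figure D3:**
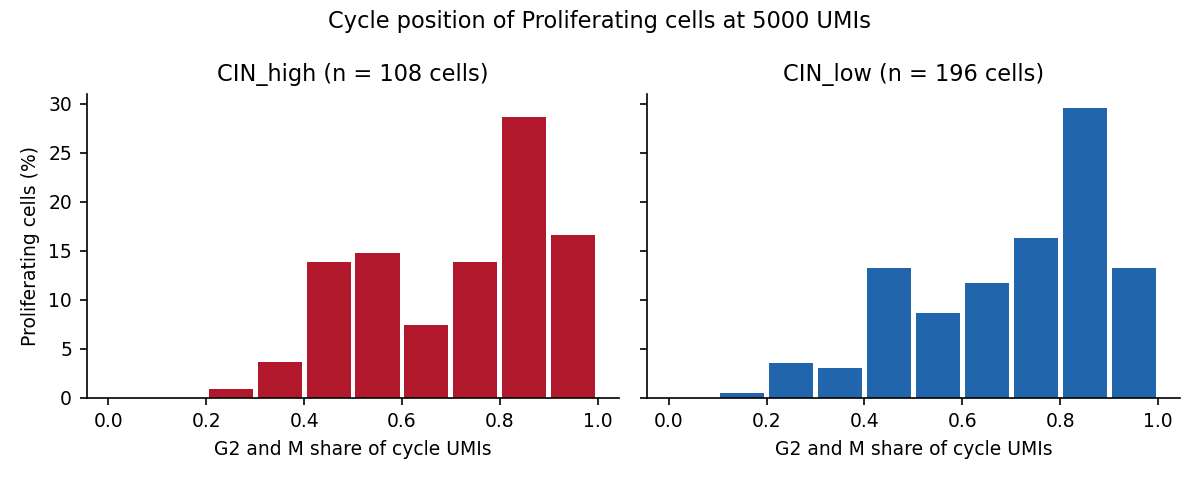
Distribution of the G2 and M share of cycle UMIs over Proliferating cells at 5000 UMIs, with bars for the percent of cells of the CIN_high library (left) and the CIN_low library (right) in each step of 0.1. Both classes peaked between 0.8 and 0.9, with 28.7% of CIN_high and 29.6% of CIN_low cells there.

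The promoters of these waves carry known motifs, shown here for a pair of genes highest in late cells and a pair of replication genes lowest in late cells. In Proliferating cells Cdc20, which activates the anaphase-promoting complex, had levels of 0.120, 0.346 and 1.57 from early to late in CIN_high and 0.0484, 0.758 and 1.96 in CIN_low. Ccnb2, a mitotic cyclin, had 0.117, 0.403 and 1.41, and 0.0516, 0.556 and 1.54. Mcm5 had 0.982, 0.999 and 0.231, and 1.15, 1.13 and 0.318, and Mcm6 had 1.27, 1.47 and 0.276, and 1.38, 1.43 and 0.428. All of these genes are part of the score that placed the cells, so their order is given and not a finding. The sequences are RefSeq promoters of GRCm38.p6, 250 bases before to 50 bases after the start, on the strand of the gene. Capitals mark TTTGAA or its reverse complement TTCAAA (the CHR element, through which MuvB complexes act on mitotic genes), CCAAT or its reverse complement ATTGG (the NF-Y box), and the E2F motif in any of the forms TTTCCCGC, TTTCGCGC, TTTGCCGC and TTTGGCGC with their reverse complements. The windows lie at chr4:118437294-118437593 (minus strand) for Cdc20, chr9:70421505-70421804 (minus) for Ccnb2, chr8:75109259-75109558 (plus) for Mcm5 and chr1:128359656-128359955 (minus) for Mcm6.
Cdc20: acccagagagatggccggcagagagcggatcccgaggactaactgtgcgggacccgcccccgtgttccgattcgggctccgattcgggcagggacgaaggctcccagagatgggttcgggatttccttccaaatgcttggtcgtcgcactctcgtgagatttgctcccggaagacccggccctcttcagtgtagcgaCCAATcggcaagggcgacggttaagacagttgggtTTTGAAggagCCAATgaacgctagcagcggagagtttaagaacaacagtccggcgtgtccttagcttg
Ccnb2: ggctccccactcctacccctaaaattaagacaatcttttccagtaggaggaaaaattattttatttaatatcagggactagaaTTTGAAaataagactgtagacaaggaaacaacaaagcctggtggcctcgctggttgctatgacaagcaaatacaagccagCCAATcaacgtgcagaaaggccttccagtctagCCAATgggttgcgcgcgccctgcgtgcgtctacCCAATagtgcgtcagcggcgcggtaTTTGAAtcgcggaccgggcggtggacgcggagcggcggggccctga
Mcm5: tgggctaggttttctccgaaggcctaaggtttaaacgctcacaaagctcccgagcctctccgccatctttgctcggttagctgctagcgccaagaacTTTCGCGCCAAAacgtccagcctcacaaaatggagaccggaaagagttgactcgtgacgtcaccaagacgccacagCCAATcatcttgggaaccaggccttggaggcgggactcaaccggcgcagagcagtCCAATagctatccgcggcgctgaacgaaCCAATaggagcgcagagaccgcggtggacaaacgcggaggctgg
Mcm6: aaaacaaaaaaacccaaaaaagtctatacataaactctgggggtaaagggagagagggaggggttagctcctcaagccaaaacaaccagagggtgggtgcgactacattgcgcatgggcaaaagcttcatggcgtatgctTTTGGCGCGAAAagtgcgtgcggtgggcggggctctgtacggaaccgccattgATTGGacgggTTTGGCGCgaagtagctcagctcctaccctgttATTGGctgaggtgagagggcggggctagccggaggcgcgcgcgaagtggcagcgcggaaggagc

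The late windows shown held 1 CHR element in Cdc20 and 2 in Ccnb2 with no E2F motif, and those of the replication genes held 2 overlapping E2F motifs in Mcm5 and 3 E2F motifs, of which the first 2 overlap, in Mcm6. CCAAT boxes were in all 4. Over the G2 and M genes of the score, 46 of 52 had a window, and 32 of these held a CHR element (69.6%), against 18.1% of all 27025 windows and 5 of 30 windows of S genes (16.7%). Over the spindle genes it was 19 of 24 (79.2%). A CCAAT box was in 76.1% of G2 and M windows and 70.0% of S windows, against 37.9% of all. The E2F motif was in 11 of 30 S windows (36.7%) and 8 of 12 licensing windows (66.7%), against 2 of 46 G2 and M windows (4.35%) and 2.32% of all. These are matches of letters and show no binding.

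CIN_high and CIN_low Proliferating cells differed in many genes, though with 1 library each any of these may be a difference between the libraries. Of 13612 measured genes 1402 were at least 1.5-fold higher in CIN_high (10.3%) and 1899 were lower (14%), with a median log2 ratio of -0.06. In the other epithelial cells, which were far more numerous, 4.42% of 13176 genes were higher and 7.9% lower. Among p53 targets the balance ran the other way, towards CIN_high. Of 30 measured 10 were higher and 1 lower, with a median of 0.23, and in the other epithelial cells of the same libraries 13 were higher and none lower, with a median of 0.44. At 5000 UMIs per cell the Proliferating median was 0.45, with 12 of 29 higher and 1 lower.

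Ccng1 (chr11:40748552-40755311), cyclin G1, a feedback regulator of p53, had a level of 1.21 in CIN_high and 0.647 in CIN_low Proliferating cells, a log2 ratio of 0.90 (interval of the ratio of summed UMIs 1.44 to 1.93). In the other epithelial cells it had 1.4 and 0.522. Cdkn1a (chr17:29090976-29100727), the inhibitor of cyclin-dependent kinases known as p21, had 3.4 and 2.16 (log2 0.66). The interval of its ratio of summed UMIs, 1.19 to 1.4, lay below 1.5-fold, and by that averaging its log2 ratio was 0.37. Cdkn1a had 5.04 and 2.84 in the other epithelial cells. For Cdkn1a, Proliferating cells lay below the other epithelial cells of their library, and CIN_high above CIN_low in both kinds of cell. Phlda3, an inhibitor of Akt, had 1.16 and 0.648 (interval 1.37 to 1.81). Zmat3, an RNA-binding p53 target, had 0.535 and 0.242 (interval 1.39 to 2.29), and Eda2r, a death receptor of the ectodysplasin system, had 0.247 and 0.119 (interval 1.32 to 2.67). Ddit4l had 0.169 and 0.06, Gdf15, a secreted stress factor, 1.76 and 1.07, and Dcxr 0.915 and 0.568. Bax, which triggers apoptosis at mitochondria, had 3.63 and 2.43 (log2 0.58), just under the line of 1.5-fold. Mdm2, the ligase that degrades p53, had 0.716 and 0.599 (interval 0.867 to 1.25). The member past the line on the lower side was Ddb2, a DNA damage sensor, at 0.0596 in CIN_high and 0.0923 in CIN_low (log2 -0.63), and its ratio was 0.60 on the log2 scale when cells were thinned to 5000 UMIs.

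Along the cycle the p53 list had class medians of 0.05 early, 0.23 in the middle and 0.47 late, with 1 of 29, 9 of 30 and 12 of 30 genes higher in CIN_high where 15%, 11.4% and 14.3% of all genes were. Ccng1 had 0.737, 1.30 and 1.32 from early to late in CIN_high against 0.507, 0.692 and 0.678 in CIN_low. Cdkn1a had 2.78, 3.26 and 3.73 against 1.92, 2.77 and 1.81, and Phlda3 had 0.996, 1.16 and 1.23 against 0.706, 0.653 and 0.617. In each range all 3 genes were higher in CIN_high. The early range held only 20 CIN_high cells.

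Over all ranges together, the medians of the cycle lists lay slightly below that of all genes. Class medians of the log2 ratio were -0.16 for licensing, -0.26 for DNA synthesis, -0.25 for mitotic entry, -0.22 for spindle genes, -0.17 for kinetochore genes and -0.28 for condensation, against -0.06 for all genes, and few members passed 1.5-fold. Of 20 mitotic entry genes none did, nor any of the 12 condensation genes. Kif23, a motor of cytokinesis, was lower at 1.18 in CIN_high and 1.82 in CIN_low (log2 -0.63, interval 0.631 to 0.804), and so was Kif20a, another motor of the same step, at 0.333 and 0.521. Gins1, a helicase subunit, had 0.0873 and 0.189 (log2 -1.11, interval 0.387 to 0.887). In the early range the medians differed, at 0.22 for spindle genes, with 9 of 27 higher and none lower, and 0.34 for mitotic entry, with 6 of 19 higher and 2 lower, where 15% of all genes were higher and 19.4% lower. In the middle and late ranges they were -0.36 and -0.33 for spindle genes and -0.38 and -0.35 for mitotic entry. Both lists share members with the score that set the ranges. Early cells had medians of 33.1 UMIs of the G2 and M score genes per 10000 in CIN_high and 29.2 in CIN_low. The part of this placement in the early values was not tested. Replication-dependent histones had a median of -0.34, which was 0.30 in the early range and -0.77 in the late range, where 10 of 16 were lower and 16.3% of all genes were. Hist1h2ap had 4.90, 23.9 and 5.58 from early to late in CIN_high and 3.91, 18.8 and 12.4 in CIN_low. It was thus lower in CIN_high in late cells and higher in CIN_high in early and middle cells. By summed UMIs over all ranges its class ratio was 1.07 (interval 1.03 to 1.12).

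Of 25 interferon genes measured in Proliferating cells 8 were higher in CIN_high and 2 lower, with a median of 0.22, where 10.3% of all genes were higher and 14% lower. With early cells (below 0.5) and all later cells at equal weights 10 were higher and 1 lower (median 0.40). That setting gave the 20 early CIN_high cells as much weight as the middle and late cells together. With cells holding leukocyte UMIs left out 12 were higher and 3 lower (median 0.51, against -0.05 for all genes). Only 78 CIN_high and 28 CIN_low cells remained there. The shares of 10.3% and 14% belong to all Proliferating cells and are no background for the counts in these other settings. Irf7, a transcription factor that amplifies the response, had 0.535 in CIN_high and 0.287 in CIN_low (log2 0.90, interval 1.69 to 2.66), Usp18, a brake on it, had 0.214 and 0.107, and Rsad2 (viperin) had 0.144 and 0.0611. Ifit2 went the other way at 0.393 and 0.764, and the interferon-induced chemokine Cxcl10 and GTPase Iigp1 had 0.441 and 0.612 in CIN_high against 1.01 and 1.31 in CIN_low. The list median was 0.87 in early cells, 0.23 in middle cells and -0.05 in late cells.

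Some inflammation and dissociation genes were lower in CIN_high, and most members of both lists did not pass 1.5-fold. Of 23 NF-kB genes 7 were lower and none higher, with a median of -0.22, where 14% of all genes were lower: Cxcl2, a neutrophil-attracting chemokine, had 1.51 in CIN_high and 2.57 in CIN_low, and Icam1 had 0.622 and 1.01. Of 16 genes induced by tissue dissociation 4 were lower and none higher, with a median of -0.29. Fos, an immediate early gene, had 5.60 and 8.85, and the heat shock genes Hspa1a and Hspa1b had 0.15 and 0.0927 in CIN_high against 0.505 and 0.674 in CIN_low. Neutrophil transcripts were lower in CIN_high too, with S100a9 at 0.332 and 2.35, S100a8 at 0.279 and 1.86 and Retnlg at 0.0567 and 0.697. Their part in the inflammation result was not tested. With cells holding leukocyte UMIs left out, which left 78 CIN_high and 28 CIN_low cells, the NF-kB median was -0.74 and the dissociation median -0.72.

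Differentiation genes among the most different included both directions. Higher in CIN_high were Clu (clusterin), a gene of regenerating epithelium, at 1.47 and 0.659 (log2 1.16, interval 2.55 to 3.30), Sprr2a3, a cornified envelope protein, at 2.99 and 1.02, Krt23 at 1.5 and 0.736 and the phosphatase Ptp4a3 at 0.662 and 0.279. Of 10 goblet genes 6 were higher and 2 lower, where 10.3% of all genes were higher and 14% lower. They were led by Muc2, the main mucin of the colon, at 0.314 and 0.0163. The goblet result rested on few cells: Spink4, at 1.25 and 0.131, had 376 of its 462 CIN_high UMIs in 1 cell. Lower in CIN_high were Car1, a carbonic anhydrase of colonocytes, at 0.464 and 1.55 (log2 -1.74, interval 0.255 to 0.347), Tnfsf10, the death ligand TRAIL, at 0.201 and 0.652, and Hoxd13, a homeobox gene of the hindgut, at 0.351 and 0.845 (log2 -1.27, interval 0.262 to 0.425). Hoxd13 also had 0.281 and 0.546 in the other epithelial cells. Jchain, an immunoglobulin component, had 0.0111 and 0.863, and 1413 of its 1437 CIN_low UMIs were in 1 cell. The Wnt target median was -0.07, near that of all genes at -0.06 (10.3% higher and 14% lower), with 1 of 22 higher and 4 lower, including Lgr6, a stem cell receptor, lower at 0.131 and 0.275.

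A few genes named by size are known chiefly from other cell types. Apoe, made chiefly by macrophages in such tissue, had 3.67 in CIN_high and 1.42 in CIN_low, and 0.590 and 0.770 once cells holding markers of other cell types were left out. Fcer1g, a receptor subunit of myeloid cells, had 0.539 and 0.265, and Mgp, a matrix protein, had 5.49 and 2.87. In the other epithelial cells Apoe had 3.24 and 3.71, Fcer1g 0.507 and 0.799, and Mgp 8.19 and 7.63. A UMI of Mgp was in 68.0% and 61.9% of those cells. Without the marked cells the log2 ratios of Apoe and Fcer1g changed sign, to -0.39 and -1.68. That of Mgp did not, but it did (-0.73) without cells holding leukocyte UMIs. Kcnq1ot1 (chr7:143203458-143296549), an antisense RNA of the imprinted Kcnq1 domain, had 4.27 and 2.01 (log2 1.08, interval 1.59 to 1.90), against 2.56 and 2.75 in the other epithelial cells. The strand used in counting is not given in the sources used here, so reads of Kcnq1ot1 and its overlapping partner may not be told apart. Its ratio was 1.11 on the log2 scale without the marked cells.

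A smaller share of epithelial cells outside the subtype held several marker UMIs. With a minimum of 3 UMIs over the 4 markers at 5000 UMIs per cell, 81 of 108 CIN_high (75.0%, interval 65.7 to 82.8%) and 152 of 196 CIN_low Proliferating cells (77.6%, interval 71.1 to 83.2%) passed. Of the other epithelial cells 17 of 1099 CIN_high (1.55%, interval 0.904 to 2.47%) and 31 of 1427 CIN_low cells (2.17%, interval 1.48 to 3.07%) did. Proliferating cells thus made up 82.7% and 83.1% of the epithelial cells past that minimum, 69.8% and 72.6% at a minimum of 2 UMIs, and 58.2% and 59.8% at a minimum of 3 UMIs at full depth. The p57+_cancer_cell group had none in 71 CIN_high and 195 CIN_low cells, Stem_cell_1 had 0.968% and 3.26%, and Cancer_cell_1 had 1.18% and 1.60%. The shares were higher in Complement+_stem_cell, at 2 of 38 (5.26%) and 6 of 84 (7.14%), in CIN_low Enterocyte cells, at 3 of 74 (4.05%), and in Igfbp+_cell, at 4 of 25 CIN_high cells. The doublet caller marked 31 of 39 CIN_high and 67 of 85 CIN_low Complement+_stem_cell cells, and 13 of the 25 Igfbp+_cell cells. The part of doublets in these shares was not tested. At the same depth 0 of 731 CIN_high fibroblasts passed.

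Outside the cycle lists, Proliferating cells resembled the main stem and cancer subtypes. Across genes, Pearson's r between mean log levels was 0.921 with Stem_cell_1 in CIN_high and 0.931 in CIN_low, and 0.921 and 0.920 with Cancer_cell_1. It was lowest with Enterocyte, at 0.739 and 0.749, and lay at 0.805 and 0.804 with p57+_cancer_cell. Of the genes compared 33.9% and 30.8% differed 1.5-fold from Stem_cell_1, against 67.4% and 66.4% from Enterocyte. These r values are descriptions across genes that share libraries, and genes are not independent.

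Since the classes are named for chromosomal instability, the RNA of each chromosome was compared from cell to cell. DNA copy number was not measured, and the rule below was chosen after values had been seen, so the counts are descriptions. Genes of each autosome were dealt alternately by position into sets A and B, leaving out DNA repair, cycle-list, mitochondrial and ribosomal genes and any gene above 2% of its chromosome's UMIs. A cell counted as up for a chromosome when both sets took a share of its UMIs at least 0.2 log2 units above the median of its subtype in its class. Shares are of the autosomal UMIs of the genes used. Among CIN_high Proliferating cells, chromosome 7 was up in 24 of 108 (22.2%, interval 14.8 to 31.2%), chromosome 11 in 14 (13.0%, interval 7.27 to 20.8%) and chromosome 6 in 7 (6.48%, interval 2.65 to 12.9%). None of 196 CIN_low Proliferating cells was up for any of these, which allows a share of up to 1.53%. These counts depend on the line: at 0.15 there were 4, 2 and 1 CIN_low cells up for chromosomes 6, 7 and 11, and the CIN_high count for chromosome 11 was 8 at 0.3 and 20 at 0.15, while for chromosome 7 it was 19 and 24. Together 44 CIN_high cells (40.7%) were up for chromosome 6, 7 or 11. A single cell was up for both 6 and 7, and none for 7 and 11. For every other chromosome 0 to 3 CIN_high and 0 to 9 CIN_low cells were up. Cells with both sets below the median by the same line are not reported here.

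The cells up for chromosome 7 formed the high end of the CIN_high cells, with some overlap. Chromosome 7 took 8.33 to 12.03% of their UMIs (median 9.79%), against 5.68 to 9.13% (median 7.01%) in the other CIN_high cells and 5.60 to 8.28% (median 6.91%) in CIN_low cells. The shares on sets A and B went together in CIN_high, with r = 0.697 over 108 cells, and hardly in CIN_low, with r = 0.0859 over 196 cells. Those points are cells of 1 library each and share its reagents and depth range.

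**Figure D4:**
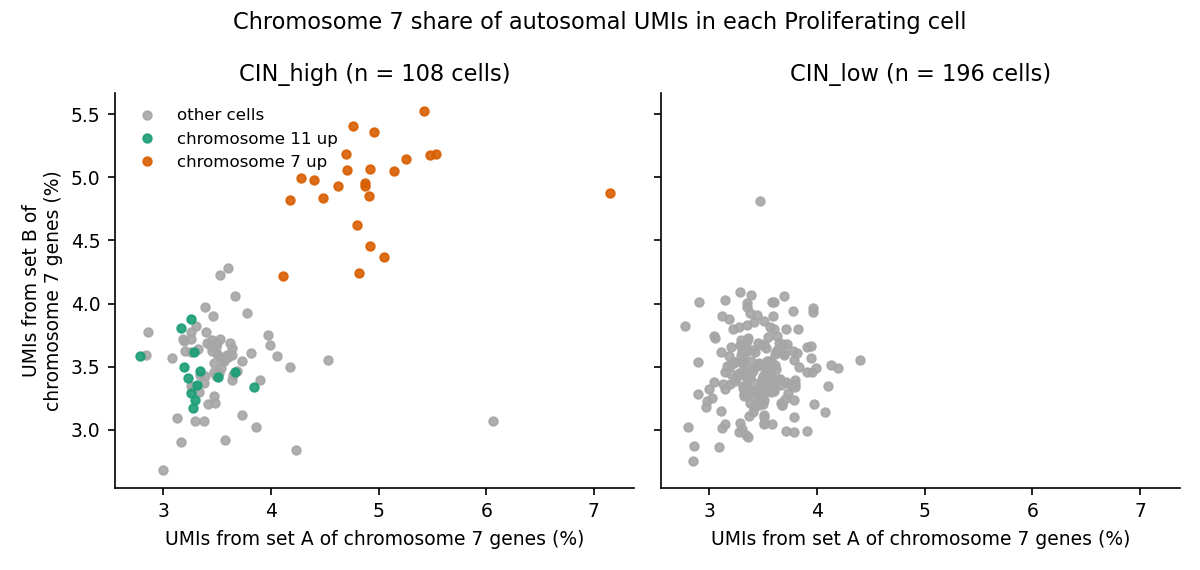
Percent of a cell's autosomal UMIs that came from chromosome 7 genes of set A (x axis) and set B (y axis), with 1 point for each Proliferating cell of at least 5000 UMIs in CIN_high (left) and CIN_low (right). The 24 cells up for chromosome 7 (orange) lay at the upper right and met the other CIN_high cells at their lower edge, cells up for chromosome 11 are green, and no CIN_low cell was up.

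Most of chromosome 7 contributed. With cells chosen on set A alone (29 against 79 other CIN_high cells), the 388 genes of set B had a median log2 ratio of 0.44, or 1.36-fold, and 86.1% of them were above 0. With cells chosen on set B (26 against 82) the genes of set A had 0.50, or 1.41-fold, and 82.2% were above 0. The other autosomes had medians from -0.09 to 0.12 in these comparisons. In CIN_low the same choice gave 7 and 10 cells and medians of 0.11 both ways. Along the chromosome in 5 segments of equal gene number, all 5 were higher in the chosen CIN_high cells, by 0.39 to 0.51 on set B and by 0.37 to 0.59 on set A. On chromosome 11 the higher segments were the distal ones: with cells chosen on set A (25 against 83) the segments had -0.06, -0.04, 0.17, 0.66 and 0.48, and with cells chosen on set B (19 against 89) they had -0.10, -0.06, 0.02, 0.41 and 0.25. Segment 4 began at 90.6 Mb in the first comparison and at 88.7 Mb in the second. In CIN_low 3 cells were chosen on set A, with 0.21 and 0.24 in segments 4 and 5, and 12 on set B, with -0.12 and -0.05.

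**Figure D5:**
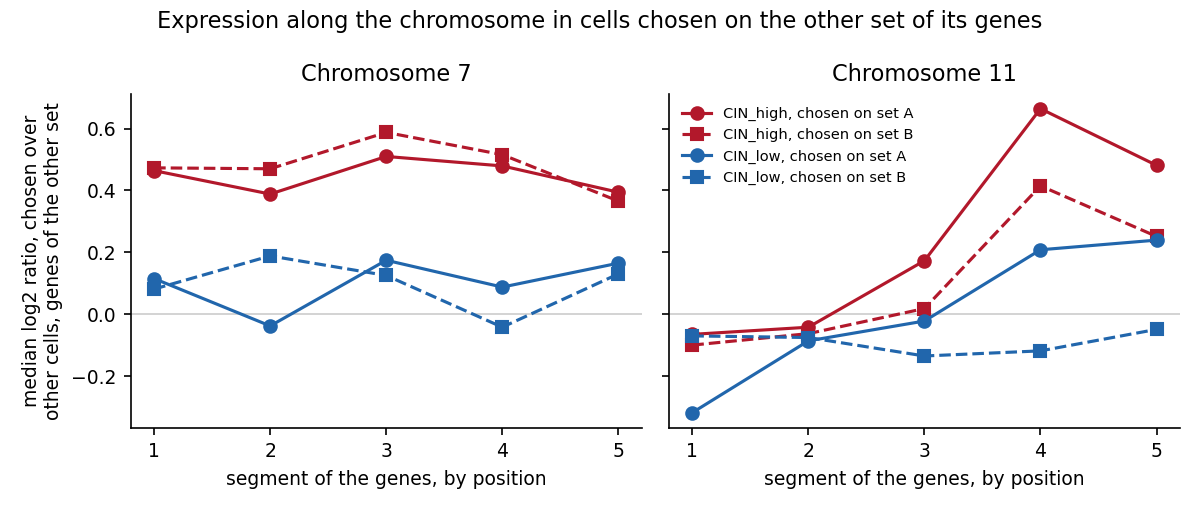
Median log2 ratio of cells high for chromosome 7 or 11 on one gene set over the other cells of the class, measured on the genes of the other set, in 5 segments of equal gene number from the chromosome's start. In CIN_high chromosome 7 was higher in all 5 segments, and chromosome 11 in segments 4 and 5, at 0.66 and 0.48 with cells chosen on set A.

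The cells up for chromosome 7 were compared with the other CIN_high Proliferating cells. Their median depth was 26426 UMIs against 23648 in the other CIN_high cells, and 1 of 24 against 3 of 84 were called doublets. Epithelial markers summed to 55.4 against 52.1, and p53 targets to 22.2 against 21.0, per 10000 UMIs. The early, middle and late ranges held 8, 7 and 9 of them, against 12, 29 and 43 of the other cells. Over the 30 p53 targets the median log2 ratio between these cells and the other CIN_high cells was 0.00, against 0.02 for all genes. Other lists lay further off, with medians of 0.29 for the S genes and -0.25 for the G2 and M genes of the score, -0.45 for 21 fetal-like genes, -0.37 for 12 colonocyte genes, 0.37 for 22 Wnt targets and 1.49 for 10 goblet genes. The lists were not cleared of chromosome 7 genes, whose levels the choice of cells itself raised. Only 24 cells stood on the higher side, and goblet UMIs in CIN_high rested on few cells. With doublets left out 23 of 104 cells were up for chromosome 7, and with cells holding other cell types' markers left out 22 of 96 were. Across 732 chromosome 7 genes the class ratio had a median of 0.06 with all CIN_high cells and, across 734 genes, of -0.07 without the cells that were up.

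The same chromosomes were up elsewhere in the CIN_high epithelium. Of the other CIN_high epithelial cells 102 of 1099 were up for chromosome 7 (9.28%, interval 7.63 to 11.2%), against 23 of 1427 CIN_low ones (1.61%, interval 1.02 to 2.41%). For chromosome 11 the shares were 13.2% in CIN_high and 1.75% in CIN_low, and for chromosome 6 they were 5.00% and 2.38%. Chromosome 7 was up in 8.63% of CIN_high and 0.436% of CIN_low Cancer_cell_1 cells, and in 10.3% and 0.651% of Stem_cell_1 cells, so the share in CIN_high Proliferating cells was above both. Proliferating cells are deeper, and shallower cells give noisier shares, and the part of depth in these gaps was not tested. Subtypes also differ in which genes they use, and the pool of other epithelial cells mixes subtypes around 1 median.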

How the data were processed

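The authors deposited 1 expression table of 21041 genes by 14097 cells, in natural log units (the natural log of 1 plus UMIs per 10000), with tables of cell type, epithelial subtype and CIN class; no count table was used here. Per the submitters' processing notes, Cell Ranger 2.1.1, Seurat and mm10 were used; no other setting was stated. UMIs were recovered from the steps of the deposited natural log values, and 100% came out whole within a tolerance of 0.01. Summed UMIs came to 51868113 (median 6448 a cell) for CIN_high and 74733715 (median 7154) for CIN_low; 11 barcodes were in both libraries. No column of another series was present.

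A gene was measured where at least 2% of the cells of 1 side had a UMI. For the ratios over chromosome genes and for r between subtypes the minimum was 10%. Levels are means over cells of UMIs per 10000, and ratios with a group at 0 were bounded at 3 UMIs. Exact 95% binomial and conditional intervals came from SciPy 1.17.1, doublets from Scrublet in Scanpy 1.11.5 at an expected 6% (141 CIN_high cells, 2.28%, and 276 CIN_low cells, 3.49%; marked cells were kept), and figures from matplotlib 3.10.9, under Python 3.11.15. Gene positions were found for 20653 genes (98.2%) in a mm10 annotation. The scripts were tested on simulated data.

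Named genes were the 15 furthest each way seen in at least 10% of cells, at a level of at least 0.5 and at least 50 UMIs, plus a set list of cycle, p53, stem cell and telomere genes; within gene lists, those past 1.5-fold, up to 4 each way. A few such genes are not reported here. Along the cycle they were the 12 furthest each way outside the score. The cells, gene lists and rules were chosen with earlier results of these data known. No model or test was run, since each class is 1 library. Alternatives were another averaging, doublets left out, thinning, other filters, another scaling, other sets of cells and other chromosome lines.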

Additional observations from a re-analysis of the deposited data

Results flagged for a closer look

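Of 651 named or listed genes, 1 lay at least 1.5-fold on opposite sides in the classes. Over all genes measured in both classes 153 of 13037 did (1.17%). Gkn3, a gastrokine, had a level of 0.0950 in CIN_high Proliferating cells against 0.147 in the other CIN_high epithelial cells (log2 -0.63), and of 0.106 in CIN_low Proliferating cells against 0.0632 in the other CIN_low ones (log2 0.74). The difference between the classes was not tested, and the Proliferating values rested on 26 and 94 UMIs.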

How the results depend on the processing

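No paired analysis was possible because each class is 1 library and the labels give the classes no shared replicate numbers. Without replicates no result had a test, so the alternatives show only how far a value moved. Of the summary values under all alternatives 190 stayed and 28 moved, and of single genes 1422 stayed, 219 moved and 7 reversed. With genes measured in 10% of cells, 1010 genes were lower than in the other epithelial cells in both classes, and 569 were higher and 940 lower in CIN_high over CIN_low; with no filter 3242 were higher in both classes and 3717 higher in CIN_high. Class medians that moved at 5000 UMIs were -0.22 for dissociation genes, -0.040 for the spindle checkpoint, 0.45 for p53 targets and 0.11 for fetal-like genes; from summed UMIs the dissociation median was -0.18. With early cells (below 0.5) and all later cells at equal weights the medians were -0.14 for DNA synthesis and 0.40 for interferon genes. With cells holding leukocyte UMIs left out (78 CIN_high and 28 CIN_low cells remained) they were -0.72 for dissociation, -0.12 for the spindle checkpoint, 0.26 for fetal-like, -0.34 for DNA synthesis, 0.51 for interferon, -0.48 for licensing, -0.14 for mitotic entry, -0.74 for NF-kB and -0.38 for Wnt targets. Outside the subtype, cycling cells were 3.55% in CIN_high and 4.48% in CIN_low at a minimum of 2 UMIs, 0.841% in CIN_low at 5 UMIs, and 6.39% and 8.45% at full depth. Alternatives added after seeing the data were the exclusion of cells with other cell types' markers, of shared barcodes and of the chromosome 7 cells (DNA synthesis -0.35), and the chromosome lines: at 0.15 chromosome 6 was up in 2.04% of CIN_low cells. Genes that changed sign were Fcer1g (-0.00069 without doublets, -1.35 without leukocyte UMIs, -1.68 without other markers), Ddb2 (0.60 at 5000 UMIs, against -0.63), Apoe (-0.90 without leukocyte UMIs, -0.39 without other markers) and Mgp (-0.73 without leukocyte UMIs); their cause was not tested. The rarest genes named rest on few molecules (Ddb2 on 15 UMIs in CIN_high and 49 in CIN_low), and 108 CIN_high cells limit every share.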
